A study of Mus musculus with 34 samples.

Results

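The Ccdc genes are mouse genes whose symbol is Ccdc, for coiled-coil domain containing, followed by a number. In the count table of 21647 genes, 138 symbols had this form with at most 1 added letter. Of these, 9 well-known genes of motile cilia (Ccdc33, Ccdc39, Ccdc40, Ccdc65, Ccdc78, Ccdc103, Ccdc114, Ccdc151 and Ccdc153) were set aside by name, and 16 did not reach 10 counts in 4 libraries. The other 113 genes are described here. From general knowledge, 21 of them were listed as known ciliary, 8 with the axoneme or sperm flagellum and 13 with centrioles, centriolar satellites or basal bodies. A further 40 were listed with a role outside cilia, and 52 were left with no assigned role, which does not mean that they have none in cilia. The lists were made with earlier results of these data known.

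RNA was sequenced in bulk from 34 samples of ependymal cells of C57BL/6 mice, which line the ventricles of the brain and carry many motile cilia each. Cells from the lateral ventricular walls of E18.5 embryos were grown to confluency and then kept for 4 days without serum to differentiate. The groups were Rfx1-/- (4 samples) with wild-type siblings (4), Rfx2-/- (6) with wild-type siblings (8), and Rfx3-/- (6) with wild-type siblings (6). Every sample title also carries OF1, which the labels leave unexplained, and no label says whether replicates were separate embryos or cultures, so p-values measure only the spread between these samples.

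A coiled coil is a pair or bundle of protein helices wound around each other, a shape that serves as a spacer, rod or docking surface. The Ccdc name records that predicted shape and not a shared ancestor or job, so its members range from rulers and docking factors of the ciliary axoneme to mitochondrial, endosomal and secreted proteins. RFX factors are DNA-binding proteins that recognise the X-box, a motif found near many genes for cilia, and RFX2 and RFX3 act with FOXJ1 in cells that build many motile cilia.

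The targeted gene was lower in each knockout line, at 19.7 to 30.1 CPM (counts scaled to library size) for Rfx1 in knockouts and 51.9 to 76.0 CPM in wild types. Rfx2 ran from 43.2 to 55.3 CPM in knockouts and from 83.0 to 129 CPM in wild types, and Rfx3 from 24.9 to 51.7 CPM in knockouts and from 157 to 209 CPM in wild types. Library totals lay between 18.2 and 53.4 M counts. The summed level of 12 ependymal markers, none of them at 0, ran from 2129 to 3692 CPM in Rfx1 knockouts and from 2659.7 to 3464 CPM in their wild types. It ran from 1028 to 1384 CPM in Rfx2 knockouts and from 1398 to 3150.4 CPM in their wild types, and from 941 to 2916 CPM in Rfx3 knockouts and from 3061 to 3752 CPM in their wild types. By the test given below, 11 of these 12 markers were called lower in the Rfx2 line and 4 in the Rfx3 line. Of all genes tested, 18.4% were called lower in the Rfx2 line and 12.9% in the Rfx3 line. Several of these markers are themselves genes for cilia. In bulk RNA, fewer ciliated cells and less of a transcript per cell cannot be told apart, and the part of cell makeup in the results below was not tested.

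Ccdc genes fell widely in Rfx2 and Rfx3 knockouts, while no Ccdc gene passed the test in Rfx1 knockouts. In the Rfx2 line, 49 of the 108 Ccdc genes that passed the low-count filter were called lower and 11 higher (edgeR's quasi-likelihood test, Benjamini-Hochberg adjusted p below 0.05 over all genes). A further 3, Ccdc116, Ccdc154 and Ccdc175, passed the filter in no line. Among all 14305 genes tested there, 18.4% were called lower and 13.9% higher. In the Rfx3 line, 37 of 109 were called lower and 4 higher, against 12.9% lower and 10.6% higher of all 14340 genes tested. The median log2 fold change, knockout over wild type, was -0.16 for Ccdc genes and 0.01 for all genes in the Rfx2 line, and -0.19 and 0.02 in the Rfx3 line. Every knockout lay below every wild type for 21 of 108 Ccdc genes in the Rfx2 line, against 6.93% of all genes, and for 30 of 109 in the Rfx3 line, against 9.83%. Every knockout lay above every wild type for 3 in the Rfx2 line, against 3.58% of all genes, and for 1 in the Rfx3 line, against 5.65%.

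Lower calls made up a larger share of the known ciliary genes than of the genes listed outside cilia. As earlier results of these data were known when the lists were made, this contrast is a description. Of the known ciliary genes, 15 of 20 tested fell in Rfx2 knockouts and 11 of 20 in Rfx3 knockouts, with none called higher, and their median log2 fold changes were -0.44 in the Rfx2 line and -0.56 in the Rfx3 line. Of the 40 genes listed outside cilia, 8 fell and 6 rose in Rfx2 knockouts, and 6 fell and 2 rose in Rfx3 knockouts, with medians of 0.05 and -0.01. These shares of lower calls outside cilia, 20% and 15%, lie near the background of all genes. Genes with no assigned role fell in 26 of 48 cases in the Rfx2 line (median -0.39) and in 20 of 49 in the Rfx3 line (median -0.35).

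**Figure D1:**
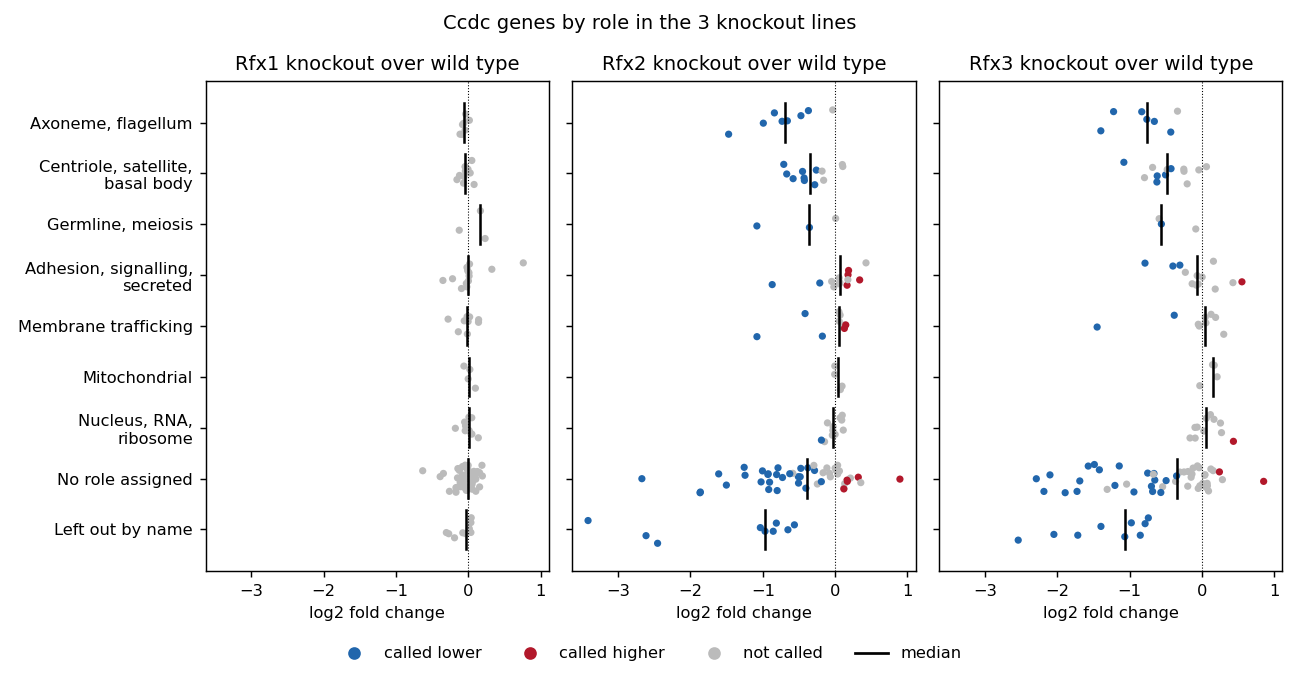
Log2 fold change, knockout over wild type, of each Ccdc gene tested in the Rfx1, Rfx2 and Rfx3 lines, in rows by listed role; blue points were called lower, red points higher and grey points not called, and the black bar is the median of the row. The axoneme row and the row of genes set aside by name lie left of 0 in the Rfx2 and Rfx3 lines, and the rows for the nucleus and mitochondria lie around 0.

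The genes of the axoneme, the microtubule core of the cilium, gave the lowest medians of the role lists in both lines. In the Rfx2 line 7 of 8 fell, with a median log2 fold change of -0.70, and in the Rfx3 line 6 of 7 fell, with a median of -0.76. Ccdc146, which mice need to build sperm flagella, was at 24.9, 29.5 and 35.03 CPM in Rfx2 knockouts (lowest, median and highest library) and at 42.6, 81.98 and 140.3 CPM in their wild types. The groups did not overlap, and Rfx2 knockouts kept 36.0% of the wild-type level (log2 fold change -1.47, SE 0.23, adjusted p 0.000356). Ccdc146 in the Rfx3 line was at 19.1, 48.7 and 84.4 CPM in knockouts and 120.4, 135 and 155 CPM in wild types, again without overlap (log2 fold change -1.40, SE 0.33, adjusted p 0.0103).

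Ccdc113 and Ccdc96, whose proteins work as a pair in the cilia of Tetrahymena, also fell in both lines. Ccdc113 was at 14.8, 16.9 and 18.6 CPM in Rfx2 knockouts and 19.1, 33.7 and 53.1 CPM in wild types, a log2 fold change of -0.99 (SE 0.19, adjusted p 0.00153). Rfx3 knockouts had 7.40, 24.2 and 42.7 CPM of Ccdc113, and their wild types 54.7, 57.9 and 63.8 CPM, a log2 fold change of -1.22 (SE 0.39, adjusted p 0.0387). The groups did not overlap in either line, although the lowest Rfx2 wild type lay just above the highest Rfx2 knockout. Ccdc96 was at 42.9, 48.3 and 53.3 CPM in Rfx2 knockouts and 61.3, 83.99 and 123 CPM in wild types (log2 fold change -0.84, SE 0.14, adjusted p 0.000488). The Rfx3 line had 35.2, 61.6 and 96.2 CPM of Ccdc96 in knockouts and 107, 113 and 124 CPM in wild types (log2 fold change -0.83, SE 0.23, adjusted p 0.0212). The log2 fold changes of Ccdc96 in the Rfx2 and Rfx3 lines differed by less than their errors. Without any 1 Rfx3 wild type, or any 1 of Rfx3 knockout replicates 4 to 6, Ccdc113 was no longer called in the Rfx3 line (adjusted p from 0.0513 to 0.0761).

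Smaller decreases were seen for Ccdc173, a protein inside the doublet microtubules, for Ccdc189, which mice need to build sperm flagella, and for Ccdc181, a microtubule-binding protein of motile cilia. Ccdc173 had log2 fold changes of -0.73 (SE 0.16, adjusted p 0.00283) in the Rfx2 line and -0.66 (SE 0.22, adjusted p 0.0444) in the Rfx3 line. Ccdc189 had -0.66 (SE 0.12, adjusted p 0.000845) in the Rfx2 line and -0.76 (SE 0.26, adjusted p 0.0476) in the Rfx3 line. Exons of Ccdc189 share 25.6% of their length with Phkg2, so reads of these genes cannot be told apart there. Ccdc181 changed least of those called in both lines, to 36.7, 39.5 and 41.8 CPM in Rfx2 knockouts against 42.9, 51.7 and 60.2 CPM in wild types (log2 fold change -0.37, SE 0.07, adjusted p 0.000996). Among Rfx3 samples Ccdc181 was at 35.9, 45.3 and 54.9 CPM in knockouts and 59.04, 60.2 and 64.1 CPM in wild types (log2 fold change -0.43, SE 0.12, adjusted p 0.0185). Without any 1 Rfx3 wild type, or any 1 of Rfx3 knockout replicates 4 to 6, neither Ccdc173 (0.0664 to 0.0924) nor Ccdc189 (0.0629 to 0.0962) passed in the Rfx3 line, by adjusted p. With no filter on low counts Ccdc173 (adjusted p 0.0504) and Ccdc189 (0.0536) were not called in the Rfx3 line either.

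Ccdc34, which is linked to sperm flagella in humans and mice, fell in the Rfx2 line alone by the test in each line. It was at 40.3, 46.01 and 50.7 CPM in Rfx2 knockouts and 50.4, 64.4 and 83.03 CPM in wild types, a log2 fold change of -0.47 (SE 0.10, adjusted p 0.00240). Ccdc34 in the Rfx3 line was at 50.4, 67.3 and 115 CPM in knockouts and 84.3, 91.8 and 96.8 CPM in wild types, without a call (log2 fold change -0.34, SE 0.19, adjusted p 0.203). The change in the Rfx3 line was not shown to differ from that in the Rfx2 line. Ccdc38, a protein of the sperm flagellum, was at under 1 CPM in every group and passed the filter in the Rfx2 line alone, where it was not called.

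Centriole, satellite and basal body genes moved in the same direction by less. In the Rfx2 line 8 of 12 fell (median log2 fold change -0.35), and in the Rfx3 line 5 of 13 fell (median -0.48). Ccdc13, a centriolar satellite protein needed for cilium assembly in human cells, was at 16.9, 20.05 and 21.8 CPM in Rfx2 knockouts and 21.3, 33.9 and 42.4 CPM in wild types, and 1 wild type lay within the knockouts' range (log2 fold change -0.71, SE 0.13, adjusted p 0.000998). Rfx3 knockouts had 10.03, 21.02 and 32.97 CPM of Ccdc13, and their wild types 42.00, 45.5 and 50.5 CPM, without overlap (log2 fold change -1.08, SE 0.27, adjusted p 0.0146). Ccdc13 gave the largest decrease of this list in each line among the genes called. Ccdc14, another satellite protein, had log2 fold changes of -0.67 (SE 0.14, adjusted p 0.00201) in the Rfx2 line and -0.62 (SE 0.19, adjusted p 0.0325) in the Rfx3 line, while Ccdc57, which acts in centriole duplication, had -0.45 (SE 0.11, adjusted p 0.00528) in the Rfx2 line and -0.51 (SE 0.14, adjusted p 0.0198) in the Rfx3 line. Ccdc138 had -0.43 (SE 0.13, adjusted p 0.0236) in the Rfx2 line and -0.62 (SE 0.16, adjusted p 0.0137) in the Rfx3 line. Ccdc66, a satellite protein that binds microtubules, was called lower in both lines, at -0.26 in the Rfx2 line and -0.43 in the Rfx3 line, but shares 39.1% of its exon length with Fam208a. Without 1 of Rfx2 knockout replicates 1 and 2, Ccdc138 was no longer called in the Rfx2 line (adjusted p 0.0536 to 0.0594), and without 1 of 7 libraries, Rfx3 knockout replicates 4 to 6 or wild types 1, 3, 4 and 5, Ccdc14 was no longer called in the Rfx3 line (0.0524 to 0.0731).

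Ccdc61, Ccdc92 and Ccdc15 fell in Rfx2 knockouts and were not called in Rfx3 knockouts. Ccdc61, whose relative in green algae places basal bodies, was at 20.5, 27.03 and 27.4 CPM in Rfx2 knockouts and 28.2, 39.1 and 54.6 CPM in wild types, without overlap (log2 fold change -0.58, SE 0.13, adjusted p 0.00306). The Rfx3 line had 27.7, 45.2 and 83.9 CPM of Ccdc61 in knockouts and 52.9, 69.5 and 81.1 CPM in wild types, and the highest library of the line was a knockout (log2 fold change -0.48, SE 0.27, adjusted p 0.210). Ccdc92, a centriole protein, had -0.28 (SE 0.06, adjusted p 0.00408) in the Rfx2 line and -0.25 (SE 0.12, adjusted p 0.139) in the Rfx3 line. Ccdc15, a protein of the inner centriole, had -0.43 (SE 0.15, adjusted p 0.0358) in the Rfx2 line and -0.68 (SE 0.25, adjusted p 0.0626) in the Rfx3 line. The difference between the lines was not called for any of the 3. The Rfx2 call of Ccdc15 was lost with the replicate number as a block (adjusted p 0.0787), in a fit of all groups (0.101) and without any 1 of Rfx2 knockout replicates 1, 2, 3, 5 and 6 and wild types 4, 6, 7 and 8 (0.0548 to 0.0776). The other centriole genes, Ccdc28b, Ccdc68, Ccdc77, Ccdc112 and Ccdc120, were not called in either line, and Ccdc68 passed the filter in the Rfx3 line alone.

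The 9 ciliary genes set aside by name give the scale of the response. All 9 fell in both lines, with median log2 fold changes of -0.97 in the Rfx2 line and -1.07 in the Rfx3 line. Ccdc33 was at 0.663, 0.970 and 1.07 CPM in Rfx2 knockouts and 3.33, 9.77 and 14.8 CPM in wild types (log2 fold change -3.42, SE 0.33, adjusted p 2.28e-05), and Ccdc40, part of the ruler that spaces the axoneme's repeats, had -0.97 (SE 0.18, adjusted p 0.00108) in the Rfx2 line and -1.40 (SE 0.28, adjusted p 0.00581) in the Rfx3 line. Axoneme genes among the Ccdc genes described here reached smaller decreases at the median. Of the 9, 2 were less firm in the Rfx3 line: Ccdc103 (adjusted p up to 0.0638) and Ccdc151 (up to 0.0871), which both serve the docking of dynein arms, were not called without 1 of Rfx3 knockout replicates 4 to 6, nor without 1 of wild types 1 to 3 for Ccdc103 or any 1 wild type for Ccdc151.

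Among genes listed with membrane trafficking, the largest called change was that of Ccdc170. Of 9, 3 fell and 2 rose in the Rfx2 line (33.3% and 22.2%, against 18.4% and 13.9% of all genes). In the Rfx3 line 2 fell and 0 rose (22.2% and 0%, against 12.9% and 10.6%). The medians were 0.06 in the Rfx2 line and 0.04 in the Rfx3 line. Ccdc170, known for binding Golgi-linked microtubules in human cells, was at 40.4, 43.7 and 48.7 CPM in Rfx2 knockouts and 59.5, 99.4 and 123 CPM in wild types. Among Rfx3 samples Ccdc170 was at 16.2, 30.97 and 59.2 CPM in knockouts and 82.01, 91.4 and 116 CPM in wild types. No knockout reached a wild type in either line, and the log2 fold changes were -1.08 (SE 0.14, adjusted p 0.000134) in the Rfx2 line and -1.45 (SE 0.26, adjusted p 0.00379) in the Rfx3 line. The fitted decrease of Ccdc170 was larger than that of every axoneme gene in the Rfx3 line, and of every one but Ccdc146 in the Rfx2 line. Ccdc134 also fell in both lines, by 0.42 on the log2 scale in the Rfx2 line and by 0.38 in the Rfx3 line, but in the Rfx3 line not without any 1 wild type or any 1 of knockout replicates 4 to 6 (adjusted p 0.0551 to 0.104). Ccdc93, a subunit of the endosomal CCC complex, rose in Rfx2 knockouts by a log2 fold change of 0.15 (SE 0.03, adjusted p 0.00513), and its partner Ccdc22 was not called in either line.

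Secreted, adhesion and signalling genes moved in both directions. Of 13, 2 fell and 4 rose in the Rfx2 line (15.4% and 30.8%, against 18.4% and 13.9% of all genes). In the Rfx3 line 3 fell and 1 rose (23.1% and 7.69%, against 12.9% and 10.6%). Ccdc3, which encodes a secreted protein, was at 2.32, 6.85 and 8.36 CPM in Rfx2 knockouts and 8.04, 11.8 and 14.6 CPM in wild types, with overlap (log2 fold change -0.87, SE 0.23, adjusted p 0.00988). Ccdc3 in the Rfx3 line was at 5.11, 7.35 and 10.5 CPM in knockouts and 10.8, 13.01 and 15.1 CPM in wild types, without overlap (log2 fold change -0.79, SE 0.17, adjusted p 0.00743). Ccdc3 stood apart in the Rfx3 line because its lowest knockouts were replicates 1 and 2 (5.36 and 5.11 CPM), whereas the ciliary genes were lowest in replicates 4 to 6. Ccdc88c, or Daple, which links Dishevelled to the polarity of ependymal cilia, fell by 0.21 on the log2 scale in the Rfx2 line and by 0.40 in the Rfx3 line. The Rfx2 call of Ccdc88c was lost without 1 of 6 libraries, knockout replicates 1 to 4 and wild types 2 and 6 (adjusted p 0.0522 to 0.0680). Ccdc80, a matrix protein, was not called in either line.

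Ccdc50, a ubiquitin-binding protein of EGF receptor and innate immune signalling, rose slightly in Rfx2 knockouts. It was at 159.9, 166 and 172 CPM in Rfx2 knockouts and 139.7, 146 and 156 CPM in wild types, without overlap, a log2 fold change of 0.18 (SE 0.03, adjusted p 0.000505). It was not called in the Rfx3 line (log2 fold change -0.05, SE 0.10, adjusted p 0.749). Ccdc85b was at 31.6, 40.4 and 73.7 CPM in Rfx3 knockouts and 27.2, 30.2 and 34.6 CPM in wild types, and was called higher there (log2 fold change 0.55, SE 0.17, adjusted p 0.0357). The groups overlapped, the highest knockout was replicate 3, and exons of Ccdc85b share 24.7% of their length with Fosl1. Without 1 of 7 libraries, Rfx3 knockout replicates 4 and 6 or wild types 1 and 3 to 6, Ccdc85b was not called (adjusted p 0.0543 to 0.0714). Besides Ccdc85b, Ccdc106 and Ccdc136, Ccdc27 was called higher in Rfx3 knockouts, at 0.688, 0.961 and 1.202 CPM in knockouts and 0.319, 0.551 and 0.703 CPM in wild types.

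Mitochondrial and nuclear members gave the fewest calls per gene of the role lists in the Rfx2 and Rfx3 lines together. None of the 4 mitochondrial genes was called in either line. Rfx3 knockout replicate 3 was high in the means of the mitochondrial and nuclear lists, as given below with the other replicates. Ccdc90b, a relative of the regulator of the mitochondrial calcium uniporter, was at 33.4, 36.2 and 48.05 CPM in Rfx3 knockouts and 30.3, 33.7 and 36.5 CPM in wild types (log2 fold change 0.17, SE 0.09, adjusted p 0.185). Of the 11 genes for the nucleus, RNA and ribosomes, 1 fell in the Rfx2 line (Ccdc137, by 0.19 on the log2 scale) and 1 rose in the Rfx3 line (Ccdc106). Ccdc106, known for promoting the degradation of p53 in human cells, was at 15.2, 17.3 and 25.4 CPM in Rfx3 knockouts and 12.1, 13.5 and 14.9 CPM in wild types, without overlap (log2 fold change 0.43, SE 0.11, adjusted p 0.0167). Without 1 of 10 of the 14 Rfx2 libraries Ccdc137 was not called (adjusted p 0.0563 to 0.0971), which held for knockout replicates 1, 2, 3, 5 and 6 and wild types 2, 3, 4, 6 and 8. Germline genes gave 2 lower calls of 3 in the Rfx2 line and 1 in the Rfx3 line. Ccdc62, which mouse spermatids need to form the acrosome, was the germline gene called in both, at -0.36 (SE 0.09, adjusted p 0.00761) in the Rfx2 line and -0.56 (SE 0.14, adjusted p 0.0135) in the Rfx3 line. A fit of all groups did not call it in the Rfx2 line (adjusted p 0.0598).

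Among the Ccdc genes described here, without those set aside by name, the deepest decreases fell on genes with no assigned role. Ccdc121 was at 0.442, 0.811 and 1.07 CPM in Rfx2 knockouts and 1.84, 4.40 and 9.19 CPM in wild types. The knockouts kept 15.7% of the wild-type level, with no overlap (log2 fold change -2.67, SE 0.33, adjusted p 9.75e-05). Rfx3 knockouts had 0.157, 1.14 and 2.98 CPM of Ccdc121, and their wild types 5.85, 6.22 and 8.41 CPM, so knockouts kept 20.4% (log2 fold change -2.29, SE 0.52, adjusted p 0.00914). Ccdc121 was the most strongly decreased in both lines of the Ccdc genes described here, from a low wild-type level.

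Ccdc187 and Ccdc162 showed the same pattern at higher levels. Ccdc187 was at 19.7, 22.4 and 30.5 CPM in Rfx2 knockouts and 41.7, 84.2 and 163 CPM in wild types (log2 fold change -1.86, SE 0.28, adjusted p 0.000276). The Rfx3 line had 11.6, 20.1 and 57.9 CPM of Ccdc187 in knockouts and 97.1, 109 and 122 CPM in wild types (log2 fold change -1.89, SE 0.35, adjusted p 0.00383). Knockouts kept 27.5% of the wild-type level of Ccdc187 in the Rfx2 line and 26.9% in the Rfx3 line. Ccdc162 was at 17.9, 20.6 and 23.6 CPM in Rfx2 knockouts and 32.4, 65.1 and 108 CPM in wild types (log2 fold change -1.61, SE 0.23, adjusted p 0.000198). Among Rfx3 samples Ccdc162 was at 10.98, 16.7 and 39.03 CPM in knockouts and 62.8, 75.7 and 90.1 CPM in wild types (log2 fold change -1.73, SE 0.30, adjusted p 0.00298). For both genes no knockout of either line overlapped its wild types.

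Ccdc150 was at 2.32, 2.65 and 2.81 CPM in Rfx2 knockouts and 4.44, 10.1 and 16.2 CPM in wild types (log2 fold change -1.87, SE 0.25, adjusted p 0.000144). Ccdc150 in the Rfx3 line was at 1.18, 3.80 and 5.91 CPM in knockouts and 8.41, 10.2 and 12.3 CPM in wild types (log2 fold change -1.49, SE 0.38, adjusted p 0.0147). Neither line overlapped. Ccdc81 and Ccdc60 had the larger fitted decrease in the Rfx3 line. Ccdc81 was at 12.8, 15.96 and 19.4 CPM in Rfx2 knockouts and 22.6, 38.3 and 62.8 CPM in wild types (log2 fold change -1.26, SE 0.21, adjusted p 0.000654). Rfx3 knockouts had 4.60, 13.02 and 23.6 CPM of Ccdc81, and their wild types 48.3, 58.9 and 76.8 CPM (log2 fold change -2.19, SE 0.39, adjusted p 0.00331). Ccdc60 had -0.79 (SE 0.18, adjusted p 0.00445) in the Rfx2 line and -1.69 (SE 0.36, adjusted p 0.00765) in the Rfx3 line. The test of the difference between lines did not call either gene.

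Other members with no assigned role followed. Ccdc180 had log2 fold changes of -1.25 (SE 0.21, adjusted p 0.000678) in the Rfx2 line and -1.57 (SE 0.34, adjusted p 0.00781) in the Rfx3 line. Ccdc89, whose protein binds the Notch effector HEY1, had -1.02 (SE 0.18, adjusted p 0.000864) in the Rfx2 line and -1.20 (SE 0.27, adjusted p 0.00925) in the Rfx3 line. Neither gene's groups overlapped. Ccdc87, linked to the acrosome of mouse sperm, fell in the Rfx2 line (-1.50, SE 0.25, adjusted p 0.000596) and was not called in the Rfx3 line (-1.04, SE 0.37, adjusted p 0.0576), where it was at 3.54, 10.5 and 20.2 CPM in knockouts and 21.8, 23.1 and 26.7 CPM in wild types. Ccdc192 was at 0.315, 2.45 and 6.94 CPM in Rfx3 knockouts and 8.76, 12.6 and 14.1 CPM in wild types (log2 fold change -2.10, SE 0.58, adjusted p 0.0216). In the Rfx2 line Ccdc192 fell by 0.81 on the log2 scale, a call that was lost without 1 of 7 libraries, knockout replicates 1, 2, 3, 5 and 6 and wild types 2 and 4 (adjusted p 0.0615 to 0.0815). Ccdc24 had -1.42 (SE 0.30, adjusted p 0.00753) in the Rfx3 line at levels of 0.236, 0.634 and 1.16 CPM in knockouts and 1.504, 1.74 and 2.17 CPM in wild types, but shares 63.4% of its exon length with Slc6a9 and B4galt2 together.

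**Figure D2:**
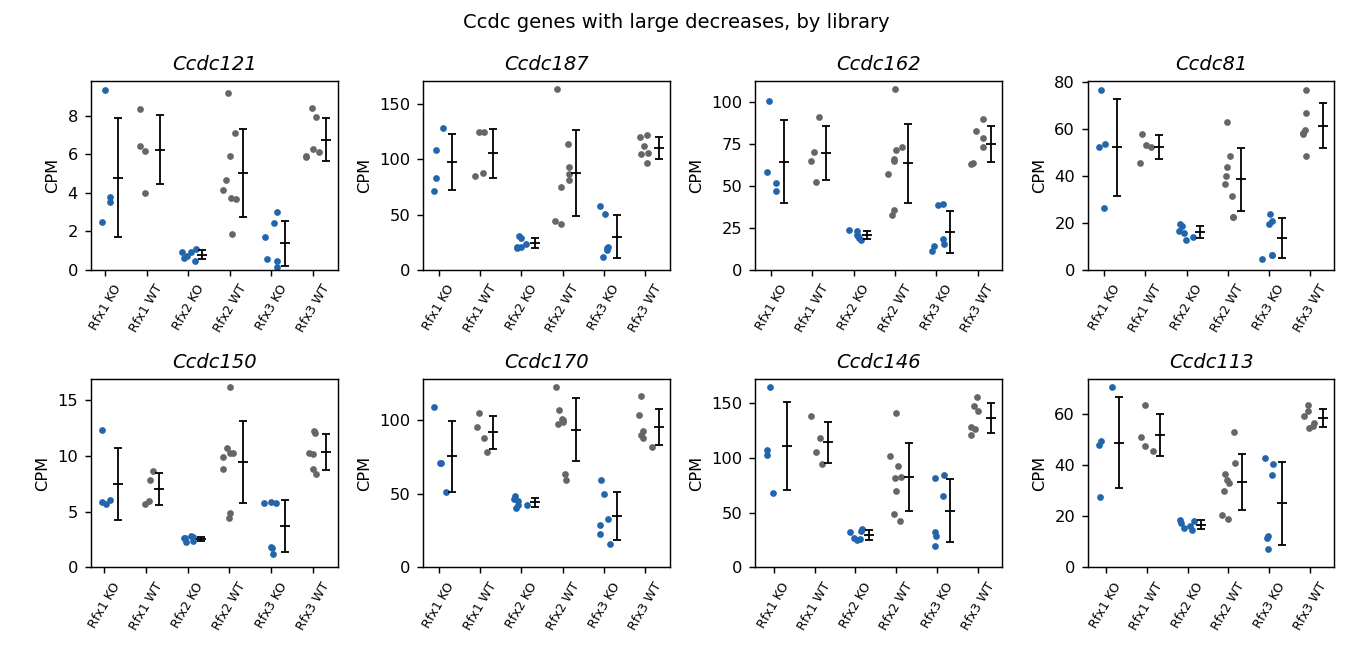
CPM per library of 8 Ccdc genes called lower in both the Rfx2 and Rfx3 lines, in the 6 groups, with each knockout group left of its wild types; points are libraries and bars are means ± SD. Knockouts of the Rfx2 and Rfx3 lines lie below their wild types in each panel, the 6 Rfx3 knockouts form a higher and a lower cluster in most panels, and the Rfx1 groups overlap.

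Of the 107 Ccdc genes tested in both lines, 36 fell in both, against 8.63% of the 14086 genes tested in both. They are 73.5% of the Ccdc genes lower in the Rfx2 line and 97.3% of those lower in the Rfx3 line. Their median log2 fold changes were -0.76 in the Rfx2 line and -0.78 in the Rfx3 line, and 25 of the 36 were more negative in the Rfx3 line. By listed role, 6 were axoneme genes, 5 centriole genes, 2 trafficking genes, 2 signalling or secreted genes, 1 a germline gene and 20 had no assigned role. A further 13 fell in the Rfx2 line without a call in the Rfx3 line, 1 (Ccdc8) fell in the Rfx3 line and rose in the Rfx2 line, and 44 were called in neither. Across the 107 genes the log2 fold changes of the lines had Pearson's r of 0.875 and Spearman's rho of 0.843, given as a description, since genes are not independent replicates. The lines have separate knockouts and wild types. Even so, Rfx2 itself was called lower in Rfx3 knockouts (log2 fold change -0.56, SE 0.12, adjusted p 0.00861). Rfx1 was called lower there too (-0.45, SE 0.11, adjusted p 0.0111), and for neither gene did the groups overlap. In the Rfx2 line neither Rfx3 (-0.06, adjusted p 0.652) nor Rfx1 (-0.11, adjusted p 0.220) was called. The part of the lower Rfx2 and Rfx1 in the shared decreases was not tested.

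The rest of the 36 had no assigned role, and Ccdc148, Ccdc157 and Ccdc190 among them are given further below. Ccdc158 fell by 1.005 on the log2 scale in the Rfx2 line and by 0.75 in the Rfx3 line. Ccdc171 fell by 0.93 in the Rfx2 line and by 1.14 in the Rfx3 line, and Ccdc30 by 0.80 in the Rfx2 line and by 0.94 in the Rfx3 line. Ccdc171 was at 9.23, 14.4 and 30.04 CPM in Rfx3 knockouts and 34.9, 39.7 and 43.97 CPM in wild types, without overlap. Ccdc18, Ccdc17, Ccdc191 and Ccdc9b fell by 0.40 to 0.63 in the Rfx2 line and by 0.35 to 0.68 in the Rfx3 line. Ccdc17 was not called in the Rfx3 line without any 1 wild type or any 1 of knockout replicates 4 to 6 (adjusted p 0.0595 to 0.0942), and Ccdc18 and Ccdc9b were lost there without 1 of 3 libraries (knockout 4, wild types 3 and 5; 0.0540 to 0.0548) and without wild type 3 (0.0579). Ccdc18 was also not called in the Rfx2 line without knockout replicate 4 (0.0523).

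The 13 genes called lower in the Rfx2 line alone mostly had a negative estimate in the Rfx3 line too. Ccdc74a was at 41.6, 48.2 and 52.5 CPM in Rfx2 knockouts and 64.9, 92.4 and 109 CPM in wild types, without overlap (log2 fold change -0.92, SE 0.12, adjusted p 0.000102). Rfx3 knockouts had 30.1, 54.6 and 79.8 CPM of Ccdc74a, and their wild types 74.2, 87.6 and 113 CPM, just short of a call (log2 fold change -0.67, SE 0.23, adjusted p 0.0515). Ccdc91, a partner of GGA adaptors at the Golgi, was the 1 of the 13 with a positive estimate in the Rfx3 line (log2 fold change 0.05, SE 0.05, adjusted p 0.461), and its Rfx2 decrease of 0.18 was lost without 1 of 10 of the 14 libraries (adjusted p 0.0502 to 0.103), those being knockouts 1 to 4 and wild types 1, 2 and 5 to 8. For none of the 13 was the difference between the lines called.

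**Figure D3:**
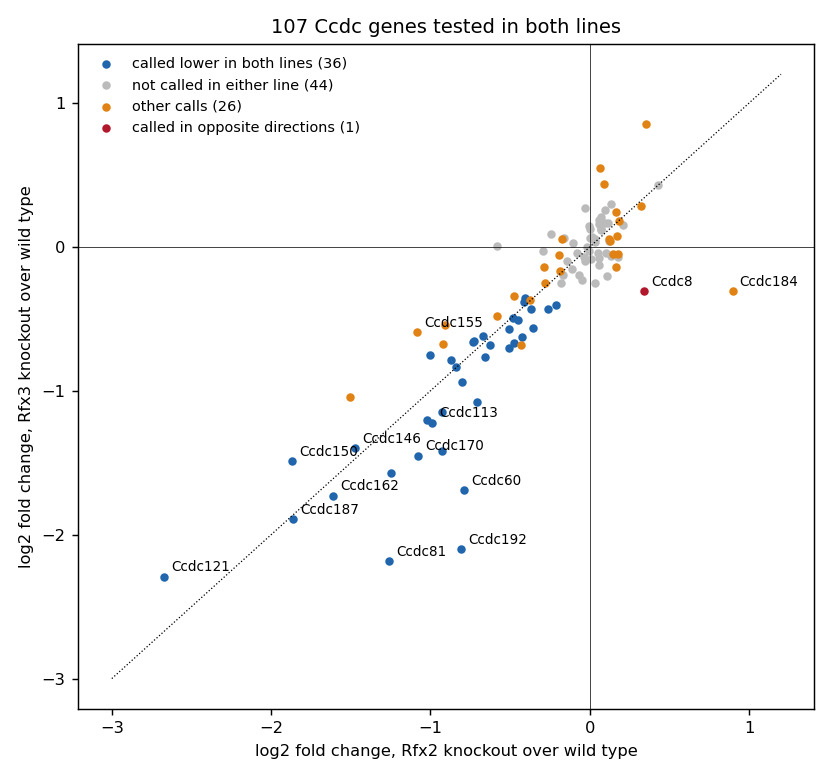
Log2 fold change, knockout over wild type, of 107 Ccdc genes in the Rfx3 line (vertical axis) against the Rfx2 line (horizontal axis), with equal values on the dotted diagonal and colours by call. The 36 genes called lower in both lines run along the diagonal down to Ccdc121, and Ccdc184 and Ccdc8 lie off it with opposite signs in the lines.

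Promoter sequences are shown for the 4 genes called lower in both lines with the smallest adjusted p in the weaker line among those with a sequence, since RFX factors act at promoters. Each runs 5′ to 3′ on the gene's strand, from 250 bases before the annotated start to 50 after it (RefSeq, GRCm38.p6). Capitals mark GTTGCC, an X-box half-site, or a longer X-box pattern of 14 letters (GT, any 2, CC, any 3, G, any 2, AC), searched on either strand. On the other strand GTTGCC reads GGCAAC. Ccdc170 has 2 annotated windows, of which the upstream one (chr10:4482265-4482564, plus strand) is printed and holds GTTGCC on its minus strand, while the other (chr10:4509622-4509921, plus strand) holds neither. The Ccdc187 window (chr2:26294508-26294807, minus strand) holds neither, the Ccdc148 window (chr2:59160634-59160933, minus strand) holds the longer pattern, and the Ccdc157 window (chr11:4160244-4160543, minus strand) holds GTTGCC.
Ccdc170: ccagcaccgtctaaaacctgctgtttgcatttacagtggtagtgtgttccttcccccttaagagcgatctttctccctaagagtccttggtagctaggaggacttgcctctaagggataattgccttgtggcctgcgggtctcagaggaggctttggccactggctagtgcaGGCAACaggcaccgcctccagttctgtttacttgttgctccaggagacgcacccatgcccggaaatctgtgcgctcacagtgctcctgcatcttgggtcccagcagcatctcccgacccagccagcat
Ccdc187: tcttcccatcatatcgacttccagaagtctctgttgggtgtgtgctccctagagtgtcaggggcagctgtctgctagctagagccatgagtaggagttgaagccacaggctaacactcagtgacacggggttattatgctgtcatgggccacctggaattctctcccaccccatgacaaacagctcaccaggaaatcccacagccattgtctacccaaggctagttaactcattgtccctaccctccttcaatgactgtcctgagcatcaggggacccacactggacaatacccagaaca
Ccdc148: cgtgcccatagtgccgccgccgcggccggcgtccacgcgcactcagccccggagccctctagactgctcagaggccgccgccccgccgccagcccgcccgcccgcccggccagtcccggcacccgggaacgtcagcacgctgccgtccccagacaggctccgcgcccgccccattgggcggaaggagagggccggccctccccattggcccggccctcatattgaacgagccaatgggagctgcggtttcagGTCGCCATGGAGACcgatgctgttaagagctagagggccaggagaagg
Ccdc157: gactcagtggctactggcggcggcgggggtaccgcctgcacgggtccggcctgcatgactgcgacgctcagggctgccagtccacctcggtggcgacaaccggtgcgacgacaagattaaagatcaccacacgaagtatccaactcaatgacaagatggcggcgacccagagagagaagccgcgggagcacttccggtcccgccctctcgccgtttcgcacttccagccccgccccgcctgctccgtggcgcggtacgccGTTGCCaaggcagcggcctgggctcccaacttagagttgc

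Ccdc148 had log2 fold changes of -0.51 (SE 0.10, adjusted p 0.00122) in the Rfx2 line and -0.70 (SE 0.13, adjusted p 0.00398) in the Rfx3 line. Ccdc157 had -0.51 (SE 0.10, adjusted p 0.00139) in the Rfx2 line and -0.57 (SE 0.12, adjusted p 0.00736) in the Rfx3 line. Ccdc157 was thus decreased by a moderate fold, at 113, 124 and 133 CPM in Rfx2 knockouts and 132, 177 and 231 CPM in wild types, with overlap. Promoters were matched for 88 of the 113 Ccdc genes, which have 111 windows, and Ccdc162 and Ccdc81 were not among them. GTTGCC lay on either strand in 24 of the 111 windows of Ccdc genes (21.6%), in 10 of the 34 windows of genes lower in both lines (29.4%), in 7 of the 41 windows of genes called in neither (17.1%), and in 12.5% of all 32851 windows. The longer pattern lay in 14 of the 111 (12.6%), in 6 of the 34 (17.6%), in 4 of the 41 (9.76%) and in 4.62% of all windows. Over the 14442 windows of genes tested in the Rfx2 line, the shares were 12.9% for GTTGCC and 5.73% for the longer pattern. A match of letters is a description of the sequence and was not tested as a binding site.

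Ccdc8 rose in Rfx2 knockouts and fell in Rfx3 knockouts, and Ccdc184 rose in Rfx2 knockouts without a call in Rfx3 knockouts. Ccdc184 was at 7.22, 9.09 and 10.4 CPM in Rfx2 knockouts and 3.85, 4.96 and 6.61 CPM in wild types, so that every knockout lay above every wild type (log2 fold change 0.90, SE 0.12, adjusted p 0.000174). The Rfx3 line had 3.69, 4.61 and 5.82 CPM of Ccdc184 in knockouts and 4.92, 5.32 and 7.69 CPM in wild types, with overlap and no call (log2 fold change -0.31, SE 0.14, adjusted p 0.139). It was the largest increase of a Ccdc gene in the Rfx2 line among those called with a mean of at least 1 CPM. Ccdc8, a subunit of the growth-regulating complex of CUL7 and OBSL1, was at 33.1, 35.5 and 38.9 CPM in Rfx2 knockouts and 24.96, 29.01 and 32.2 CPM in wild types, all knockouts higher (log2 fold change 0.34, SE 0.06, adjusted p 0.000805). Among Rfx3 samples Ccdc8 was at 24.5, 26.2 and 29.96 CPM in knockouts and 31.5, 32.7 and 35.5 CPM in wild types, all knockouts lower (log2 fold change -0.31, SE 0.07, adjusted p 0.00799). For Ccdc8 the order of the groups was thus reversed between the lines, with no overlap in either.

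The difference itself, the Rfx3 effect minus the Rfx2 effect in a fit of all 34 libraries, was called lower for 3 of 113 Ccdc genes and higher for none, against 2.1% lower and 1.74% higher of all 14833 genes tested. At an unadjusted p below 0.05, 15 of the 113 passed. The difference was -1.21 (SE 0.18, adjusted p 0.000109) for Ccdc184 and -0.66 (SE 0.09, adjusted p 3.85e-05) for Ccdc8. Ccdc85c, a junction protein of the ventricular lining whose loss causes hydrocephalus in mice, had a difference of -0.32 (SE 0.08, adjusted p 0.0221). It was at 38.7, 40.7 and 43.1 CPM in Rfx2 knockouts and 32.3, 34.99 and 42.2 CPM in wild types, and at 44.8, 48.7 and 52.9 CPM in Rfx3 knockouts and 50.2, 52.9 and 57.9 CPM in wild types. The groups overlapped in both lines. The difference for Ccdc85c was not called with the replicate number as a block (adjusted p 0.0559) or without 1 of 14 libraries (0.0513 to 0.0919), namely Rfx1 knockout replicate 4, Rfx1 wild type 2, Rfx2 knockouts 1, 2, 3, 4 and 6, Rfx2 wild types 1, 5, 6 and 7, and Rfx3 knockouts 4 to 6.

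**Figure D4:**
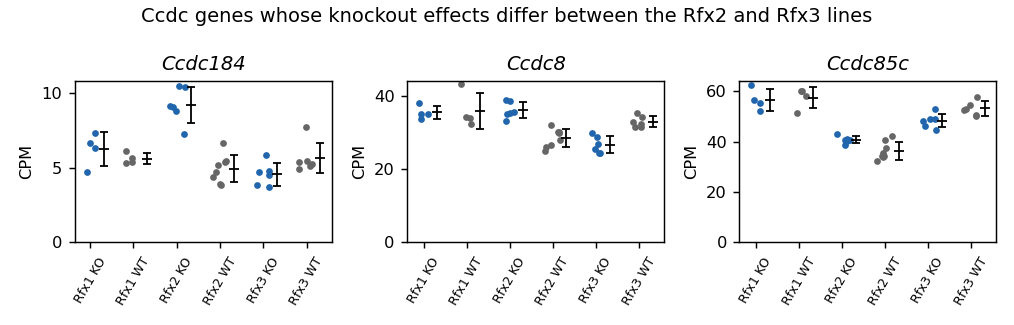
CPM per library of Ccdc184, Ccdc8 and Ccdc85c in the 6 groups, with each knockout group left of its wild types; points are libraries and bars are means ± SD. Rfx2 knockouts lie above their wild types for Ccdc184 and Ccdc8, and Rfx3 knockouts lie below their wild types for Ccdc8.

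The other increases of the Rfx2 line were small. Ccdc167 rose by a log2 fold change of 0.32 (SE 0.08, adjusted p 0.00528) and shares 38.1% of its exon length with Cmtr1. Ccdc71l rose by 0.19 and Ccdc82 by 0.17 on the log2 scale, and neither was called with the replicate number as a block (adjusted p 0.0537 for Ccdc71l and 0.0632 for Ccdc82). In a fit of all groups Ccdc167 (adjusted p 0.0924) and Ccdc82 (0.0854) were not called. Ccdc136 was the 1 Ccdc gene called higher in both lines, at 71.2, 74.4 and 83.7 CPM in Rfx2 knockouts and 62.5, 67.6 and 73.5 CPM in wild types, and at 56.7, 60.9 and 71.2 CPM in Rfx3 knockouts and 49.8, 52.97 and 58.3 CPM in wild types. Its groups overlapped in both lines, with log2 fold changes of 0.16 (SE 0.05, adjusted p 0.0153) in the Rfx2 line and 0.24 (SE 0.07, adjusted p 0.0282) in the Rfx3 line. Without Rfx3 knockout replicate 4 or 6 or Rfx3 wild type 1, 3, 4 or 5, Ccdc136 was not called in the Rfx3 line (adjusted p 0.0556 to 0.0662).

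In Rfx1 knockouts no Ccdc gene was called in either direction among the 105 tested, where all 13830 genes tested gave 0.00723% lower and 0% higher. DESeq2 also called none. At an unadjusted p below 0.05, 1 of 105 passed, against 2.03% of all genes. No Ccdc gene had every Rfx1 knockout below or above every wild type, as 0.716% and 0.774% of all genes had. The gene with the smallest p was Ccdc89, at 10.02, 9.23, 15.5 and 8.03 CPM in the Rfx1 knockouts and at 14.6, 15.99, 16.4 and 19.1 CPM in their wild types. Of the 4 knockouts, 3 lay below every wild type and replicate 3 lay among them (log2 fold change -0.63, SE 0.19, unadjusted p 0.0102). Ccdc81 and Ccdc146, which fell in the other lines, were not called in the Rfx1 line, where knockouts lay on both sides of the wild types. Ccdc81 was at 52.2, 53.5, 76.8 and 26.1 CPM in Rfx1 knockouts and at 53.3, 45.4, 52.4 and 57.7 CPM in their wild types. Ccdc146 was at 103, 107, 165 and 68.0 CPM in Rfx1 knockouts and at 105, 94.1, 118 and 138 CPM in their wild types. For both genes knockout replicate 3 was the highest of the 8 libraries and replicate 4 the lowest, and Foxj1 was likewise highest in replicate 3 (1974 CPM) and lowest in replicate 4 (1262 CPM). The median log2 fold change over Ccdc genes was -0.01, with -0.06 for axoneme genes and -0.04 for centriole genes. Ccdc130 lies 0.161 Mb from Rfx1 on chromosome 8 and was at 13.0, 11.9, 14.2 and 12.7 CPM in the knockouts and at 11.4 to 12.03 CPM in the 4 wild types, without a call. No Ccdc gene lies within 10 Mb of Rfx2 or Rfx3.

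A missing call in the Rfx1 line does not show that its effects differ from those of the other lines, so that difference was tested. The Rfx2 effect minus the Rfx1 effect was called for 1 of 113 Ccdc genes, Ccdc150 (-1.94), against 0.593% lower and 0.236% higher of all genes, and 32 passed at an unadjusted p below 0.05. The Rfx3 effect minus the Rfx1 effect was called lower for 11 (Ccdc13, Ccdc60, Ccdc62, Ccdc81, Ccdc148, Ccdc150, Ccdc162, Ccdc170, Ccdc171, Ccdc180 and Ccdc187) and higher for 3 (Ccdc38, Ccdc85b and Ccdc136), against 4.79% lower and 2.95% higher of all genes. At an unadjusted p below 0.05, 41 passed. Ccdc81 (-2.18) was the 1 gene still called when any 1 of the 34 libraries was left out. The other 13 were all lost without Rfx1 knockout replicate 3. Ccdc136 and Ccdc148 were lost in that omission only, and the rest in others as well. Ccdc150 lost its Rfx2 minus Rfx1 call without 1 of 23 of the 34 libraries (adjusted p 0.0515 to 0.217), which were Rfx1 knockouts 2 and 3, Rfx1 wild types 1 to 3, every Rfx2 knockout, Rfx2 wild types 2, 3, 4, 6, 7 and 8, and every Rfx3 wild type.

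The Rfx3 knockouts fell into separate levels by replicate number. Averaged over the axoneme genes on the log2 scale of CPM plus 0.5 and set against the wild-type mean, replicates 1 to 3 were at -0.33, -0.39 and -0.32, and replicates 4 to 6 at -1.45, -1.38 and -1.72. Centriole genes were at -0.16, -0.18 and -0.29 in replicates 1 to 3 and at -0.71, -0.68 and -0.71 in replicates 4 to 6. On lists outside cilia, replicate 3 stood apart. It was at 0.44 for mitochondrial genes (other knockouts -0.01 to 0.13) and 0.34 for nuclear genes (-0.04 to 0.07). For trafficking genes it was at -0.33 (others -0.20 to -0.06), and for adhesion, signalling and secreted genes at -0.28 (-0.16 to 0.11). Ccdc81 was at 23.6, 20.6 and 19.6 CPM in knockout replicates 1 to 3 and at 6.08, 6.46 and 4.60 CPM in replicates 4 to 6, all below the lowest wild type at 48.3 CPM. Levels of genes of the ependymal programme moved with this: Foxj1 was at 1480.0, 1435 and 1378 CPM in knockout replicates 1 to 3, at 763, 764 and 680.5 CPM in replicates 4 to 6 and at 1437 to 1729 CPM in wild types. Mcidas, which starts the multiciliated programme, was at 93.7, 90.4 and 65.9 CPM in knockout replicates 1 to 3, at 20.01, 22.5 and 13.3 CPM in replicates 4 to 6 and at 69.2 to 112 CPM in wild types. Pdgfra, of oligodendrocyte precursors, was at 40.0, 4.90 and 5.08 CPM in knockout replicates 1 to 3 and at 101, 136 and 45.5 CPM in replicates 4 to 6, and wild types were at 2.02 to 4.04 CPM except replicate 6 at 104 CPM. The summed level of the 8 oligodendrocyte markers ran from 208 to 597 CPM in Rfx3 knockouts and from 123 to 345 CPM in wild types, and that of 6 choroid plexus markers from 32.5 to 81.6 CPM in knockouts and from 72.9 to 97.6 CPM in wild types. The 7 astrocyte markers summed to 2314 to 5044 CPM (median 4043) in Rfx3 knockouts and to 1993 to 4605 CPM (median 2411) in wild types. Called higher in Rfx3 knockouts were 2 of 7 oligodendrocyte markers tested, Olig1 (1.07 on the log2 scale, adjusted p 0.00828) and Olig2 (1.01, 0.0143). So were 2 of 6 astrocyte markers tested, Aldh1l1 (1.10, 0.0104) and S100a6 (0.64, 0.00866), against 10.6% of all genes. Called lower were 2 of 3 choroid plexus markers tested, Folr1 (-1.004, 0.0177) and Clic6 (-0.95, 0.0248), against 12.9% of all genes. Of 7 neuroblast markers tested, Sp8 was called higher (0.80, 0.0123) and Dlx2 lower (-0.41, 0.0468). The part of these cell types in the result was not tested.

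Replicates 1 to 3 and replicates 4 to 6 of the Rfx3 line were also fitted alone, a split chosen after these levels were seen, so the counts and fold changes of both fits are descriptions. All 37 Ccdc genes called lower in the line were below 0 in both. These 37 were picked by the fit of all these libraries, so their sign here is not separate support. With replicates 1 to 3 of both groups, their median log2 fold change was -0.46, and 7 Ccdc genes were called lower (Ccdc3, Ccdc60, Ccdc81, Ccdc89, Ccdc121, Ccdc146 and Ccdc192) and 0 higher, against 1.4% lower and 0.416% higher of all genes. Ccdc81 was at -1.52 there and Ccdc146 at -0.78. With replicates 1 to 4, 1 was called lower (Ccdc3) and 0 higher, against 0.957% and 0.398% of all genes. With replicates 4 to 6 the median was -1.31, and 52 were called lower and 10 higher, against 22.7% lower and 19% higher of all genes. Ccdc81 was then at -3.41 and Ccdc146 at -2.40.

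In the Rfx2 line the spread of the axoneme mean lay among the wild types. The axoneme mean of the 6 knockouts ran from -0.80 to -0.53 relative to the wild-type mean. Wild-type replicates 1 and 5 were low, at -0.43 and -0.38, and replicate 3 was high, at 0.52, and these levels still did not reach the knockouts. The means over genes for the nucleus, RNA and ribosomes ran from -0.05 to 0.02 in the same knockouts. Foxj1 ran from 638 to 815 CPM in Rfx2 knockouts and from 803 to 1507 CPM in wild types, and Mcidas from 11.9 to 23.0 CPM in knockouts and from 25.5 to 89.0 CPM in wild types. Pdgfra was at 64.4, 100 and 95.8 CPM in knockout replicates 1 to 3 and at 5.41, 5.08 and 1.77 CPM in replicates 4 to 6. It was at 69.4 and 87.6 CPM in wild types 1 and 2, and at 1.95 to 10.4 CPM in the other wild types. The oligodendrocyte markers summed to 110.2 to 445 CPM in Rfx2 knockouts and to 112 to 324 CPM in wild types. Of the 7 oligodendrocyte markers tested, 1 was called higher, against 13.9% of all genes. The 7 astrocyte markers summed to 5750.0 to 10986 CPM (median 7991) in Rfx2 knockouts and to 4526 to 8365 CPM (median 7299) in wild types. Called higher in Rfx2 knockouts were 4 of these 7, Gjb6 (1.44 on the log2 scale, adjusted p 0.0163), Aldh1l1 (0.50, 0.0483), Aqp4 (0.38, 0.0372) and Slc1a3 (0.25, 0.0314). The 6 choroid plexus markers summed to 39.7 to 58.1 CPM in Rfx2 knockouts and to 47.9 to 64.1 CPM in wild types. Of 4 tested, Clic6 was called lower (-1.89, 0.00967) and Prlr higher (0.63, 0.0495), against 18.4% lower and 13.9% higher of all genes. The part of these cell types in the result was not tested. With replicates 1 to 3 of both groups alone, 8 Ccdc genes were called lower and 1 higher, against 4.69% lower and 2.64% higher of all genes, and with replicates 4 to 8 alone 43 were called lower and 8 higher, against 15% and 12.5%.

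**Figure D5:**
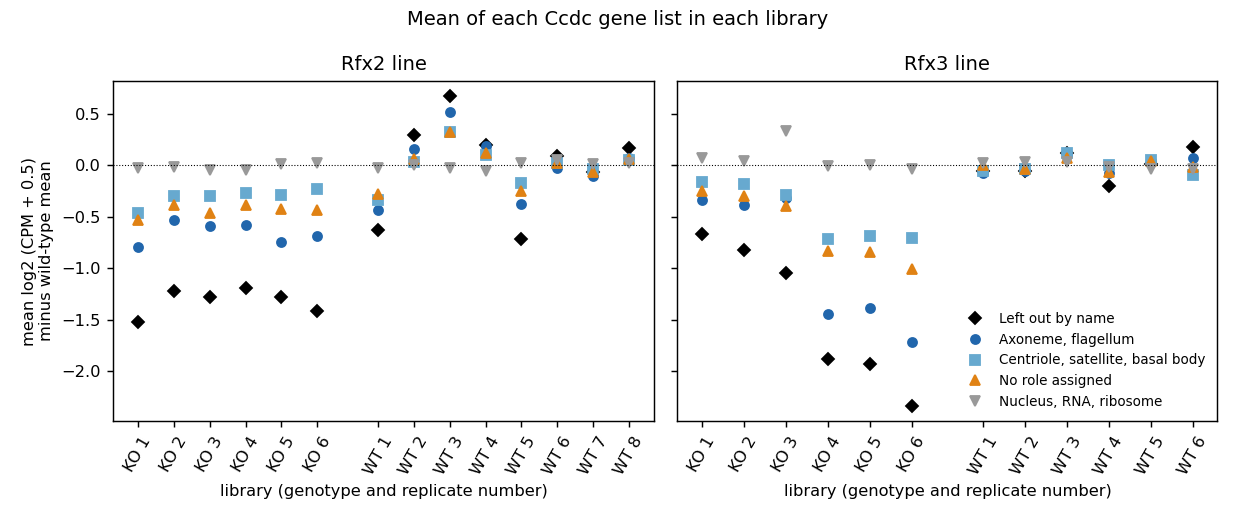
Mean log2(CPM + 0.5) of 5 gene lists in each Rfx2 and Rfx3 library, relative to the wild-type mean of the line, with knockouts left of wild types; each point is 1 library. Rfx3 knockout replicates 4 to 6 lie below replicates 1 to 3 for the ciliary lists, and the nuclear list stays near 0 except in Rfx3 knockout replicate 3.

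Ccdc genes spanned a wide range of levels in wild-type cells. Per kilobase of exon, averaged over the 3 wild-type groups, they ran from 0.0542 to 67.3 CPM with a median of 5.81. Genes lower in both lines had a median of 8.56 CPM per kb and genes called in neither 4.96, while axoneme genes had a median of 19.8 and centriole genes 4.59. At least 10 CPM per kb was reached by 36 genes, and 14 were under 1. Ccdc190, with no assigned role, was the highest, at 34.9 ± 8.70 CPM per kb in Rfx2 knockouts (SD, n = 6) and 57.8 ± 8.70 in their wild types (SD, n = 8), and at 45.8 ± 10.7 in Rfx3 knockouts and 72.1 ± 16.1 in their wild types (SD, n = 6 each). It was called lower in both lines, at -0.73 (SE 0.15, adjusted p 0.00211) in the Rfx2 line and -0.65 (SE 0.17, adjusted p 0.0167) in the Rfx3 line. Ccdc74a followed at 40.8 CPM per kb, Ccdc113 at 37.3, Ccdc157 at 34.5 and the matrix gene Ccdc80 at 30.7.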

How the data were processed

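The values the authors deposited are raw counts of reads for each Ensembl gene, made with CASAVA 1.8.2, STAR 2.4 and featureCounts 1.4.6 on GRCm38, per the submitters' processing notes. Their settings, strand use and annotation are not stated in those sources. Symbols and exon lengths came from GENCODE M21, which matched 21583 of 21647 identifiers, and the 64 others held 0.0341% to 0.0417% of a library's counts. Groups and replicate numbers came from the titles. Replicate pairs differed by more than counting error in all 85 cases, so no library was counted as a copy.

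A separate fit was made for each line in R 4.3.3 with edgeR 4.0.16: filterByExpr (minimum count 10, minimum total 15), TMM scaling and the two-sided quasi-likelihood F test, with Benjamini-Hochberg adjustment over all genes kept. Standard errors were derived from the F statistic. Differences between lines were contrasts in a fit of all 34 libraries. CPM were TMM-scaled within a line. The scripts were tested on simulated data. The 113 genes, the role lists and the tests were chosen with earlier results of these data known. Alternatives were DESeq2 1.42.0, its size factors, no filter, a minimum log2 fold change, a fit of all groups, a replicate block and leaving out replicates. Figures used matplotlib 3.10.9.

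Samples with the same replicate number tended to deviate together in the Rfx2 line, where all 6 correlations of deviations exceeded 0.1 (0.144 to 0.624). Only 3 of the 6 numbers (1, 2 and 4) correlated best within their own number, so any pairing is partial. It comes from the data and the shared numbers in the titles, and the main fit did not use it. In the Rfx1 line the 4 correlations ran from -0.109 to 0.510, with 2 best within their own number. In the Rfx3 line the 6 ran from -0.383 to 0.195, with 1 best within its own number. As some correlations in each were below 0, the numbers were not taken to pair samples there.

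Genes were named by a rule: in the Rfx2 and Rfx3 lines the 10 largest decreases and the 6 largest increases called at a log2 CPM averaging 0 or more, the smallest p of each role list, the 4 smallest p of the Rfx1 line, the called differences between the Rfx3 and Rfx2 effects, the listed ciliary genes, the 9 set aside, and the 4 printed promoters. Ccdc22, Ccdc27, Ccdc74a, Ccdc80, Ccdc88c, Ccdc93, Ccdc130, Ccdc134, Ccdc190 and members listed only by name for a count were named after their values were seen. The other Rfx1 genes of the rule were Ccdc107, Ccdc124 and Ccdc136, with log2 fold changes of -0.17, -0.18 and -0.14 and no call. Exons of 25 Ccdc genes overlap another gene, 12 of them over at least 10% of their length, and their reads cannot be told apart without strand. No cell type marker was at 0 in every library of a group. No marker of any list was called in the Rfx1 line, and none of the 6 cycling and 7 microglia markers in any line. Over all groups cycling markers summed to 297 to 1174 CPM, microglia markers to 8.37 to 1132 CPM and neuroblast markers to 10.1 to 107 CPM.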

Additional observations from a re-analysis of the deposited data

Results flagged for a closer look

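Among 128 sets of library values of named genes, 5 held a library far from the others of its group by Dixon's criterion, and chance gives about 1 in 20. Rfx3 knockout replicate 3 was the highest of its group for 3 of the 5, with 73.7 CPM of Ccdc85b, 25.4 CPM of Ccdc106 and 48.0 CPM of Ccdc90b. Rfx2 knockout replicate 1 was the lowest of its group for Ccdc61, at 20.5 CPM. Rfx2 wild-type replicate 3 was the highest of its group for Ccdc87, at 27.4 CPM.

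The effect of knockout differed between the Rfx3 and Rfx2 lines, by the contrast of all 34 libraries, for Ccdc184 (-1.21), Ccdc8 (-0.66) and Ccdc85c (-0.32) on the log2 scale. Every Rfx2 knockout was above every Rfx2 wild type for Ccdc184 and Ccdc8, and every Rfx3 knockout was below every Rfx3 wild type for Ccdc8.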

How the results depend on the processing

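Counts below are Ccdc genes called higher and lower. In the Rfx1 line they were 0 and 0 under every alternative. In the Rfx2 line, at 11 and 49, they were 13 and 52 by DESeq2, 12 and 48 with its size factors, 11 and 49 with no filter, and 8 and 46 in a fit of all groups. A log2 fold change of at least 0.5 left 1 and 31, and replicates 1 to 3 alone gave 1 and 8. In the Rfx3 line, at 4 and 37, they were 4 and 43 by DESeq2, 4 and 36 with its size factors, 4 and 34 with no filter and 9 and 44 in a fit of all groups. A log2 fold change of at least 0.5 left 2 and 30, replicates 1 to 3 alone gave 0 and 7, replicates 1 to 4 alone 0 and 1, and replicates 4 to 6 alone 10 and 52. The 36 genes lower in both lines were 32 to 40 under the first 4 alternatives, and 6 with replicates 4 to 8 alone in the Rfx2 line and 1 to 3 alone in the Rfx3 line. The cause of these shifts was not tested. The subsets hold fewer samples and were chosen after seeing the data, except replicates 1 to 4 and 4 to 8.

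With the replicate number as a block the counts were 8 and 47 in the Rfx2 line, where the numbers pair at most in part. They were 1 and 32 in the Rfx3 line and 0 and 2 for the Rfx3 minus Rfx2 effect. For Rfx2 minus Rfx1 they were 0 and 0, and for Rfx3 minus Rfx1 1 and 10. In the Rfx3 line the block ended the calls of Ccdc85b, Ccdc136, Ccdc14, Ccdc173 and Ccdc189 (adjusted p 0.0501 to 0.0770). For Rfx2 minus Rfx1, at 0 and 1, no filter gave 0 lower and DESeq2 3 and 5. For Rfx3 minus Rfx1, at 3 and 11, no filter gave 1 higher and DESeq2 17 lower.

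Leaving out 1 library in turn gave 0 and 0 throughout in the Rfx1 line, 9 to 13 and 42 to 50 in the Rfx2 line, and 2 to 7 and 29 to 51 in the Rfx3 line. It gave 0 to 1 and 2 to 4 for Rfx3 minus Rfx2, 0 to 2 and 0 to 4 for Rfx2 minus Rfx1, and 0 to 4 and 1 to 21 for Rfx3 minus Rfx1. Of the called Ccdc genes, 49 of 60 in the Rfx2 line and 31 of 41 in the Rfx3 line were called in every omission. No named gene changed sign as a called value under any of these settings.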
